A study of Mus musculus with 4 samples.

Results

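Apoptosis is carried out by a small set of proteins, and the RNA of 32 of their genes was followed here in spatial transcriptomes of mouse lung after e-vapor exposure. The 32 genes were listed by function, as core apoptosis machinery, and each was looked up by symbol among the 32285 genes of the 4 deposited count tables. Each of the 32 had at least 1 UMI (1 UMI is 1 captured transcript) in every section. Of these genes, 21 favour cell death, 7 oppose it, and 4 (Tnfrsf1a, Ripk1, Trp53 and Cdkn1a) act in either direction and were counted in neither class.

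The Vaped group (V) was 1 male and 1 female C57BL/6J mouse exposed to a flavored vape juice aerosolized from JUUL pens in a whole-body chamber, for 4 hours a day on 5 days a week over 9 weeks. The Non-Vaped group (NV) was 1 male and 1 female of the same strain. The mice were 6 to 8 weeks old when the exposure began, and no transgene or further treatment is named. One Visium section of the upper pulmonary branches, 10 µm thick, was sequenced from each of the 4 mice. A p-value for V against NV therefore measures the spread between sections of single mice. For spot sets compared within sections, it measures how their difference varied from section to section. A Visium spot covers a small region with several cells, so a lower level may reflect fewer expressing cells or less RNA per cell, and these cannot be told apart.

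In the mitochondrial pathway of apoptosis, Bax and Bak1 perforate the outer mitochondrial membrane, Bcl2, Bcl2l1 (Bcl-xL) and Mcl1 hold them in check, and the BH3-only proteins relieve that check. Cytochrome c then leaves the mitochondrion and assembles with Apaf1 and caspase-9, while the inhibitor of apoptosis (IAP) proteins such as Xiap restrain caspases. A receptor pathway runs from Fas, Tnfrsf1a and Tnfrsf10b through Fadd, Ripk1 and caspase-8. Alveolar endothelium and epithelium are among the lung cells in which these pathways have been studied in smoke and vapor injury.

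The sections held 842 (NV male), 473 (NV female), 1565 (V male) and 2053 (V female) spots with 6957392 to 34308556 UMIs each. The spots were split by the summed share of 6 lung genes (Calcrl, Cldn18, Hopx, Sftpb, Sftpc and Tmem100). Spots at or above 50% of that share over all spots are called parenchyma, and the spots below it are called hilar as a working name that says only that these 6 genes were low. The V male section stood apart, since 1 of its 1565 spots was hilar, against 158 of 842 (NV male), 125 of 473 (NV female) and 433 of 2053 (V female). Its RNA for 6 heart-muscle markers summed to 18.2 CPM (UMIs scaled to a total of 1000000), against 3673 to 7015 CPM in the other 3 sections. Its sum for 4 neutrophil markers was 580 CPM against 75.1 to 160 CPM. For several results that rest on this section, values without it are therefore also given. The alveolar type I, alveolar type II and 12 endothelial marker genes checked were all detected in the parenchyma of all 4 sections.

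Together the 32 genes took 1805 (NV male), 2010 (NV female), 2137 (V male) and 1973 (V female) CPM of whole-section UMIs. These are 3′ UMI counts, in which a level does not scale with transcript length. Mcl1, a short-lived anti-apoptotic BCL2 protein, averaged 335 CPM over the 4 sections and Cycs, which encodes somatic cytochrome c, averaged 333 CPM. Both lay at the 97.2 percentile of tested genes. Their order cannot be told, because Cycs alone ranged from 87.2 to 607 CPM. Bnip3l (171 CPM) and Bnip3 (128 CPM), mitochondrial BH3-like proteins with roles in mitophagy, and the death-domain receptor Tnfrsf1a (134 CPM) followed. At the other end stood Pmaip1 (Noxa), Bid, the TRAIL receptor Tnfrsf10b and the mitotic IAP Birc5, with means of 9.79, 8.11, 6.10 and 4.18 CPM. Birc5 rested on 16 UMIs in the NV female, whose exact Poisson 95% interval of 1.31 to 3.73 CPM covers counting error only.

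**Figure D1:**
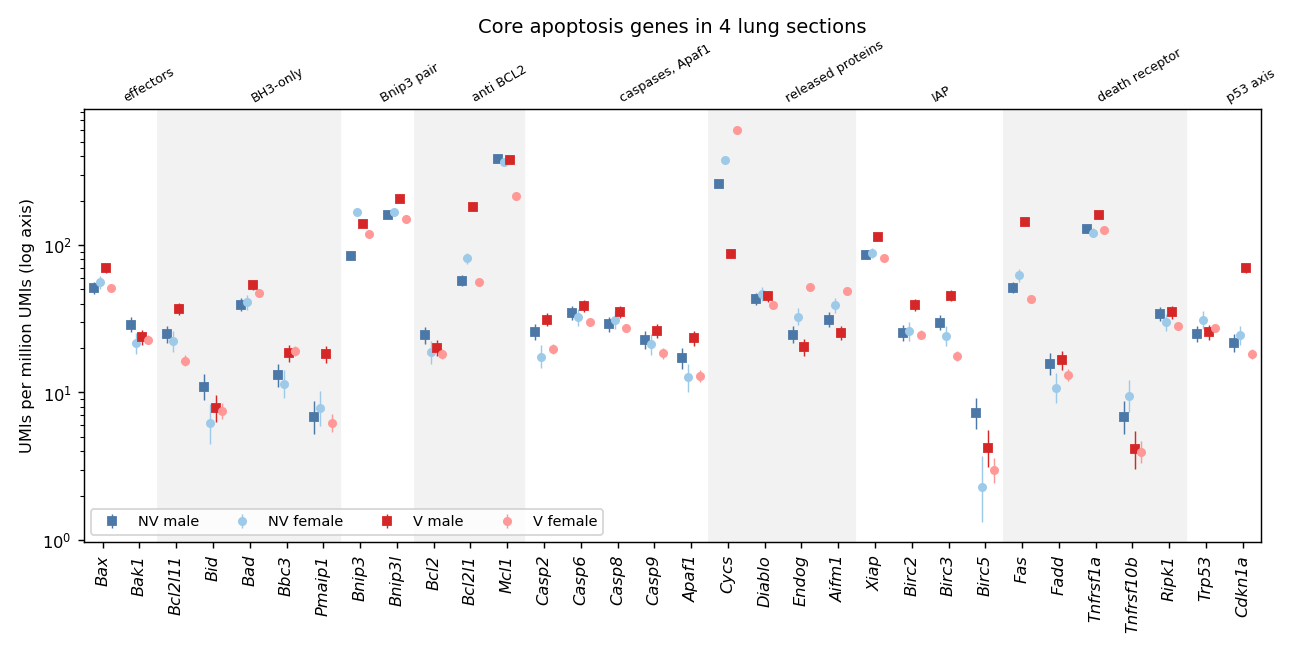
Level of each of the 32 genes in each whole section, in CPM on a log axis, grouped by role. Squares are males and circles females, blue is NV and red is V, and bars are exact Poisson 95% intervals of the counts. The V male has the highest level for 19 of the 32 genes, and Cycs spans the widest range, from 87.2 to 607 CPM.

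Many members differed by position in the section. In hilar spots, Cycs, Endog, Aifm1 and Bnip3 were higher in each of the 3 sections with at least 50 spots of both kinds, and 11 other members were lower. Of 32 members, 5 were called higher (15.6%) against 22.7% of all 13526 genes tested, and 11 were called lower (34.4%) against 18.8%. The members' median log2 fold change was −0.31 against −0.03 over all genes, with −0.28 for the 21 pro-apoptotic and −0.48 for the 7 anti-apoptotic members. Calls are edgeR quasi-likelihood tests paired by section, scaled by the TMM factors, at an adjusted p under 0.05. Levels in CPM are not scaled by these factors, so a fitted change can differ from the ratio of the printed levels.

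Cycs is the electron carrier of the respiratory chain that triggers the apoptosome once released. Its level in hilar spots was 655 (NV male), 648 (NV female) and 1040 (V female) CPM, against 142, 148 and 244 CPM in the parenchyma of the same sections. The lowest hilar value was above the highest parenchyma value. The fitted change was 2.57 on the log2 scale (SE 0.12, 5.96-fold, edgeR adjusted p = 3.7e-06).

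Endog, a nuclease of the intermembrane space, stood at 41.0 (NV male), 44.5 (NV female) and 72.4 (V female) CPM in hilar spots and at 19.8, 22.6 and 35.4 CPM in parenchyma, without overlap (log2 1.45, SE 0.12, edgeR adjusted p = 1.2e-05). Aifm1, the mitochondrial flavoprotein AIF, measured 46.9, 49.5 and 62.4 CPM against 26.3, 30.3 and 37.7 CPM, also without overlap (log2 1.18, SE 0.12, edgeR adjusted p = 3.6e-05). Bnip3 was at 104, 223 and 160 CPM against 79.2, 120 and 85.2 CPM. Its groups overlapped between mice, since the NV male hilar value lay below the NV female parenchyma value, while within each mouse the hilar level was the higher one (log2 1.18, SE 0.12, edgeR adjusted p = 4.8e-05).

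Diablo, the IAP antagonist Smac, was called higher at a log2 fold change of 0.35 (SE 0.12, edgeR adjusted p = 0.0335), although its CPM was higher in 1 of 3 sections, and with scaling to total UMIs in place of TMM its fold change was −0.07. The DESeq2 test and the fit without a filter on low counts did not call it. Diablo and Bax each overlap another protein-coding gene on the same strand in the annotation, so their counts are uncertain.

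The promoters of the 4 mitochondrial genes called in both comparisons of spot sets are shown because these genes moved together between regions of the section. They run from 250 bases before to 50 bases after the start of transcription in RefSeq (GRCm38.p6), at chr6:50566520-50566819 (minus strand), chrX:48513514-48513813 (minus strand), chr2:30171274-30171573 (plus strand) and chr7:138909457-138909756 (minus strand), each written 5′ to 3′ along the gene. Capitals mark matches, on either strand, to a core of the nuclear respiratory factor 1 motif (GCGCATGC), the cAMP response element (TGACGTCA) or the E-box CACGTG.
Cycs: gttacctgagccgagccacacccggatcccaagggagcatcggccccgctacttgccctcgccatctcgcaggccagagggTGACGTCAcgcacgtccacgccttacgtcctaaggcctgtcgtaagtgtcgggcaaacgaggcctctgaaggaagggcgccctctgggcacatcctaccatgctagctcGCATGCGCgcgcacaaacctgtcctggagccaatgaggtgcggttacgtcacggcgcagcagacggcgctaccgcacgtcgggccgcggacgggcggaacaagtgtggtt
Aifm1: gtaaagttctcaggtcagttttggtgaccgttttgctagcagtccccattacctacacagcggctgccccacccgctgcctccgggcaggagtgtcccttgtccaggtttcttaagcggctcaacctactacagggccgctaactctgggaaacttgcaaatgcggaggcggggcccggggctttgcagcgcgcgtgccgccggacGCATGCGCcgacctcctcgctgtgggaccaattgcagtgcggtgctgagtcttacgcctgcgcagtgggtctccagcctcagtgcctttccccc
Endog: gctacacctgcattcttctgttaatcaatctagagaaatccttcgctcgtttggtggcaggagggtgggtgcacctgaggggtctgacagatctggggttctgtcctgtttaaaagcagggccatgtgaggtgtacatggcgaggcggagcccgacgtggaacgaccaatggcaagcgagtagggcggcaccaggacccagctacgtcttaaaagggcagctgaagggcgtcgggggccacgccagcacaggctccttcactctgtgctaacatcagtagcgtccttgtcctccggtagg
Bnip3: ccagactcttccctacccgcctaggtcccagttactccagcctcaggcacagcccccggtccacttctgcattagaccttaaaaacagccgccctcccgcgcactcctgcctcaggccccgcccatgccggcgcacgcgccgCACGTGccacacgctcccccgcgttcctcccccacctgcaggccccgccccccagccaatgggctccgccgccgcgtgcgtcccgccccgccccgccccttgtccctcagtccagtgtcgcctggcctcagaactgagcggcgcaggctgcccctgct

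The NRF1 core occurred in the Cycs and Aifm1 promoters, the cAMP response element in that of Cycs and the E-box in that of Bnip3, and the Endog window held none of these letters. Of the 32 members, 29 had an entry in the RefSeq table, with 40 promoters between them. The NRF1 core was in 5 of these 40 (12.5%; of Bax, Apaf1, Cycs, Aifm1 and Fadd) and in 2.71% of all 32851 promoters of this length. The cAMP response element was in 2 (5%; Cycs and Birc2), against 1.79% of all, and the E-box in 5 (12.5%; Bax, Bbc3, Bnip3, Fas and Trp53), against 7.15% of all. A match is a stretch of letters and not evidence of binding.

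The members lower in hilar spots included both brakes and effectors. Among the BCL2 brakes, Bcl2l1 was at 26.7 (NV male), 47.0 (NV female) and 35.4 (V female) CPM against 66.7, 111 and 72.7 CPM in parenchyma, without overlap (log2 −0.75, SE 0.11, edgeR adjusted p = 0.000524). Mcl1 was at 204, 244 and 148 CPM against 437, 473 and 271 CPM, again without overlap (log2 −0.54, SE 0.11, edgeR adjusted p = 0.00277). Xiap, the direct caspase inhibitor, was at 42.3, 50.5 and 54.4 CPM against 99.1, 120 and 104 CPM (log2 −0.69, SE 0.11, edgeR adjusted p = 0.000883).

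On the pro-apoptotic side the BH3-only gene Pmaip1 had the largest fitted decrease. It was at 0.46, 3.76 and 2.17 CPM in hilar spots against 8.73, 11.4 and 9.64 CPM in parenchyma, where the NV male hilar value is 1 UMI (log2 −1.75, SE 0.31, edgeR adjusted p = 0.0015). Bcl2l11 (Bim), another BH3-only gene, differed by −0.75 on the log2 scale, and caspase-2 (Casp2) by −0.86. Fas differed by −0.66, Apaf1 by −0.70, Bax by −0.49, the IAP gene Birc3 by −0.42 and Tnfrsf1a by −0.32, with edgeR adjusted p-values from 0.00174 (Fas) to 0.0402 (Tnfrsf1a). In each of the 11 genes all 3 sections had the lower CPM in hilar spots. The 11 were chosen by the call, so this adds little. Members that were not called, such as Bak1, Bad, Casp6 and Casp8, also had the lower CPM there in all 3. Casp9, Ripk1, Cdkn1a and Casp8 missed the threshold with edgeR adjusted p-values of 0.0582, 0.0705, 0.0674 and 0.0758.

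How these counts split depends on the scaling. With total UMIs in place of TMM factors the median of all genes fell to −0.45, and 28 members were called. Of the 32, 4 were then higher (Cycs, Endog, Aifm1 and Bnip3; 12.5%, against 13.8% of all genes) and 24 lower (75%, against 51.5%). The share of called genes that were higher was 21.1% against 54.7% with TMM. Leaving out each of the 3 sections in turn gave 13 or 14 calls among the 32 members. Of all genes, 5898 of 14627 were called without the NV male, 4244 of 14927 without the NV female and 4868 of 12828 without the V female. Birc3 and Tnfrsf1a were not called without any one of the 3, Diablo without the NV female or the V female, and Apaf1 without the V female (−0.55, edgeR adjusted p = 0.119). Heart-muscle markers summed to 18643 (NV male), 12824 (NV female) and 5946 (V female) CPM in hilar spots against 2938, 2099 and 1768 CPM in parenchyma. The 6 brown fat markers, of which 2 were at 0 in the NV male hilar spots, summed to 1317, 2121 and 4640 CPM against 226, 418 and 1057 CPM.

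Only the V female held enough hilar spots (65) with both marker sums below their share over all spots to be read apart. There Cycs stood at 285 CPM (exact Poisson 95% interval 264 to 308) against 1040 CPM in all hilar spots and 244 CPM in parenchyma of that section. Bnip3 stood at 90.3 CPM (78.6 to 103) against 160 and 85.2 CPM. Endog, in contrast, was at 79.7 CPM (68.7 to 92.0) against 72.4 and 35.4 CPM, and Aifm1 at 49.6 CPM (41.0 to 59.5) against 62.4 and 37.7 CPM. Cycs and Bnip3 thus lay near their parenchyma level in these spots and Endog near its hilar level, in 1 mouse.

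**Figure D2:**
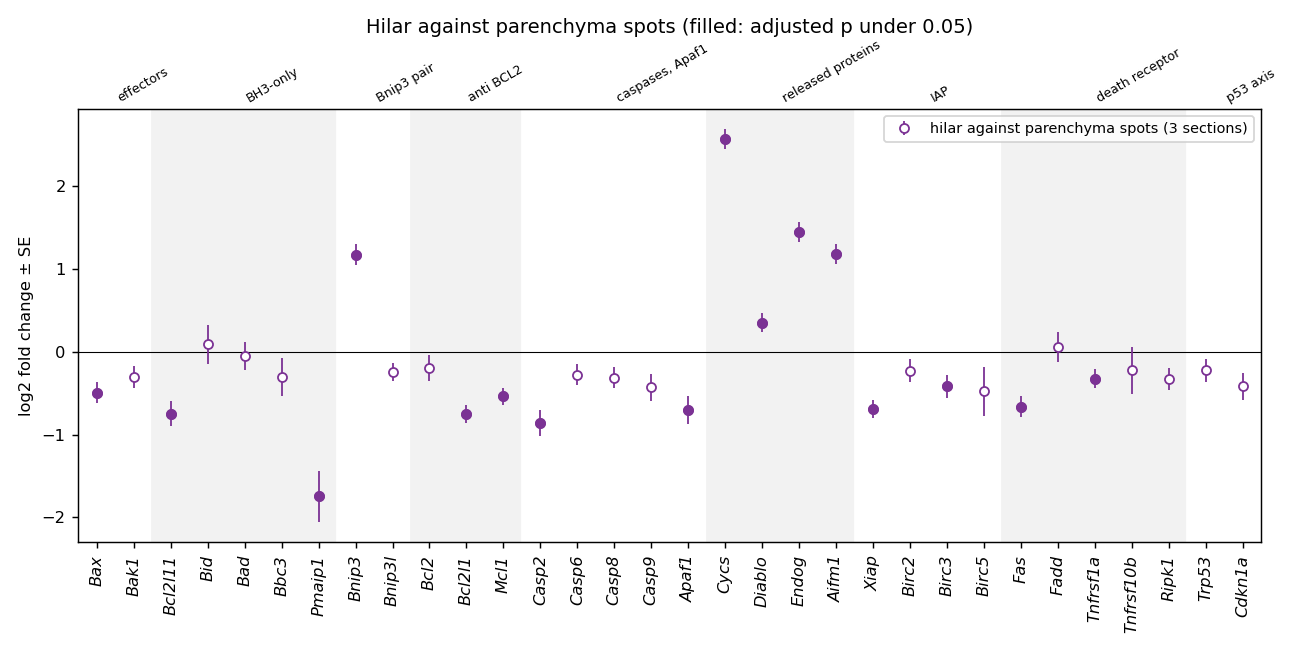
Log2 fold change of each member in hilar against parenchyma spots, with bars of ± SE, from 3 sections. Filled points passed an adjusted p of 0.05: Cycs, Endog, Aifm1, Bnip3 and Diablo above 0 and 11 members below 0.

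Endothelial-rich spots were taken as the 25% of spots of each section with the highest share of Cldn5 and Cdh5, the endothelial tight-junction claudin and VE-cadherin, among spots of 1000 UMIs or more. The 12 other endothelial markers summed to 3986, 4227, 5131 and 4199 CPM (NV male and female, then V male and female) in these spots and to 2639, 2209, 4789 and 2318 CPM in the other spots. The V male spots thus differed least in endothelial marker level.

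No member of 32 was called higher in Cldn5/Cdh5-rich spots, against 2.31% of 13273 genes, and 4 were called lower (12.5%), against 8.39%. The 4 were again Cycs, Endog, Bnip3 and Aifm1. Cycs was at 131 (NV male), 143 (NV female), 83.2 (V male) and 233 (V female) CPM in rich spots and at 302, 432, 88.3 and 670 CPM in the others, lower in 4 of 4 sections but by little in the V male (log2 −1.27, SE 0.23, edgeR adjusted p = 0.00649). Endog differed by −0.67 (SE 0.14, edgeR adjusted p = 0.0125), Bnip3 by −0.52 (SE 0.13, edgeR adjusted p = 0.0233) and Aifm1 by −0.48 (SE 0.11, edgeR adjusted p = 0.0232), each lower in 4 of 4 sections. Heart-muscle markers were lower in the same spots, at 2784, 2117 and 1337 CPM against 7795, 8156 and 4067 CPM, outside the V male.

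Within parenchyma spots the 4 differences shrank below the threshold. There Cycs was at 131, 151, 83.2 and 234 CPM in rich spots against 145, 147, 88.3 and 247 CPM in the others (log2 −0.09, edgeR adjusted p = 0.525). Endog differed by −0.14 (edgeR adjusted p = 0.727), Bnip3 by −0.09 (edgeR adjusted p = 0.649) and Aifm1 by 0.02 (edgeR adjusted p = 0.970). No member was called in either direction there, against 1.26% of 12535 genes called higher and 1.16% called lower.

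Xiap and Mcl1 were higher in rich spots in 4 of 4 sections without passing the test. Xiap measured 107, 134, 118 and 108 CPM in rich spots against 79.4, 77.8, 113 and 76.6 CPM in the others (log2 0.29, edgeR adjusted p = 0.0701). Mcl1 measured 450, 495, 387 and 281 CPM against 361, 338, 372 and 204 CPM (log2 0.21, edgeR adjusted p = 0.18). For both genes the difference was smallest in the V male. The anti-apoptotic Bcl2 and Birc5 differed by −0.15 and −0.30, also short of the threshold. Within parenchyma Xiap was at 110, 142, 118 and 106 CPM against 95.3, 113, 113 and 103 CPM (log2 0.11, edgeR adjusted p = 0.434).

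Counted by CPM alone, 9 of 32 members (28.1%) were higher in rich spots in all 4 sections, against 24.5% of all genes, namely Bak1, Bcl2l11, Mcl1, Casp6, Xiap, Birc2, Fas, Ripk1 and Cdkn1a. The 4 called members were the ones lower in all 4 sections (12.5%, against 7.93%). Within parenchyma, 2 members (Mcl1 and Xiap; 6.25%) were higher in all 4 sections against 10% of all genes. There 4 (Bad, Bcl2, Birc5 and Tnfrsf10b; 12.5%) were lower in all 4, against 8.03%.

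These calls depended on single sections and on the scaling. Leaving out the NV male left 0 member calls (472 of 13325 genes called), as did leaving out the V female (204 of 12867). Leaving out the NV female left 2 lower (Cycs and Endog; 6.25%, against 3.73% of all genes). Leaving out the V male gave 12. Of these, 8 were higher (Bax, Pmaip1, Bcl2l1, Mcl1, Xiap, Birc3, Fas and Tnfrsf1a; 25%, against 9.86%) and 4 lower (12.5%, against 15.1%). With total UMIs in place of TMM factors the median of all genes moved from 0.00 to 0.14 and the share of called genes that were higher from 21.6% to 55.3%. Bax, Bcl2l1, Xiap and Fas were then called higher (12.5%, against 8.61%), and Cycs, Endog and Bnip3 lower (9.38%, against 6.95%).

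**Figure D3:**
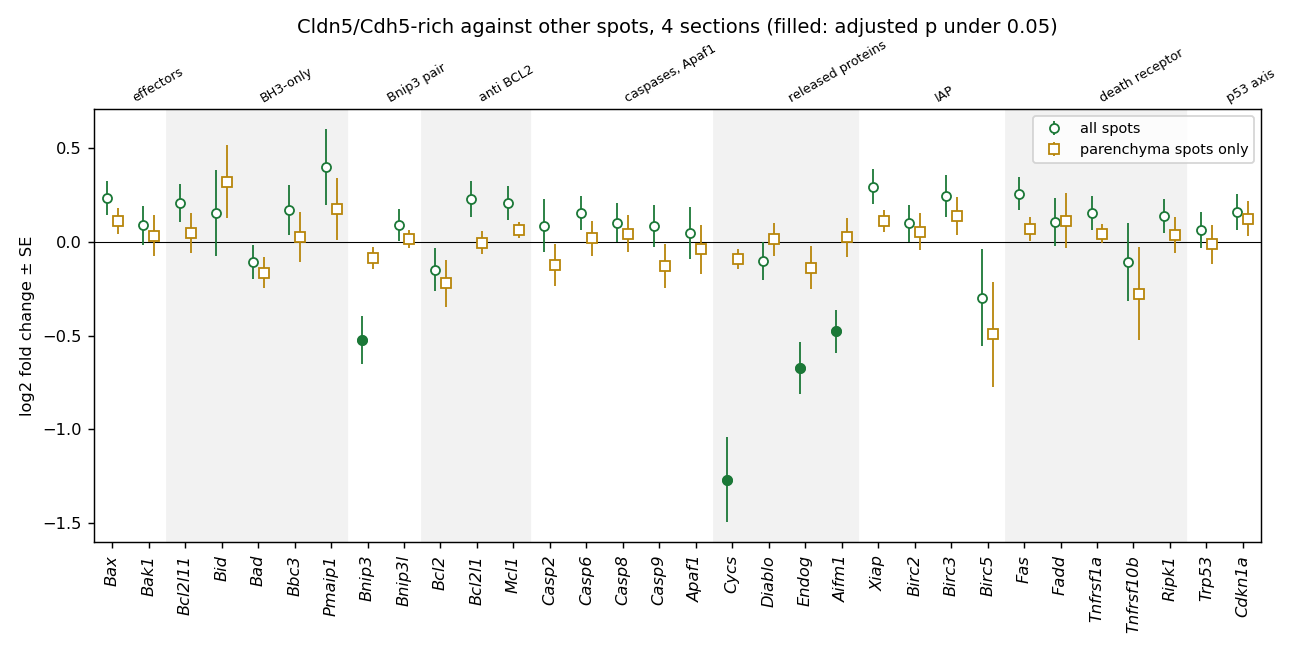
Log2 fold change of each member in Cldn5/Cdh5-rich against other spots of the same section, with bars of ± SE, over 4 sections. Circles use all spots and squares parenchyma spots alone. Cycs, Endog, Bnip3 and Aifm1 (filled) pass an adjusted p of 0.05 over all spots, and no square does.

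No member differed between V and NV past the threshold. Of 32 members, 0 were called between V and NV in whole sections (0% of 14570 genes called) and 0 in parenchyma spots (0% of 14348). In Cldn5/Cdh5-rich spots 0 of the 31 tested members were called (0% of 12061), Birc5 being too low to test. At an unadjusted edgeR p under 0.05 there were 248, 380 and 380 genes in the 3 comparisons, with 2, 1 and 1 members among them. DESeq2 called 8, 10 and 6 genes and 0 members. With 2 mice a group an exact two-sided permutation test of 1 gene cannot go below p = 0.333.

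**Figure D4:**
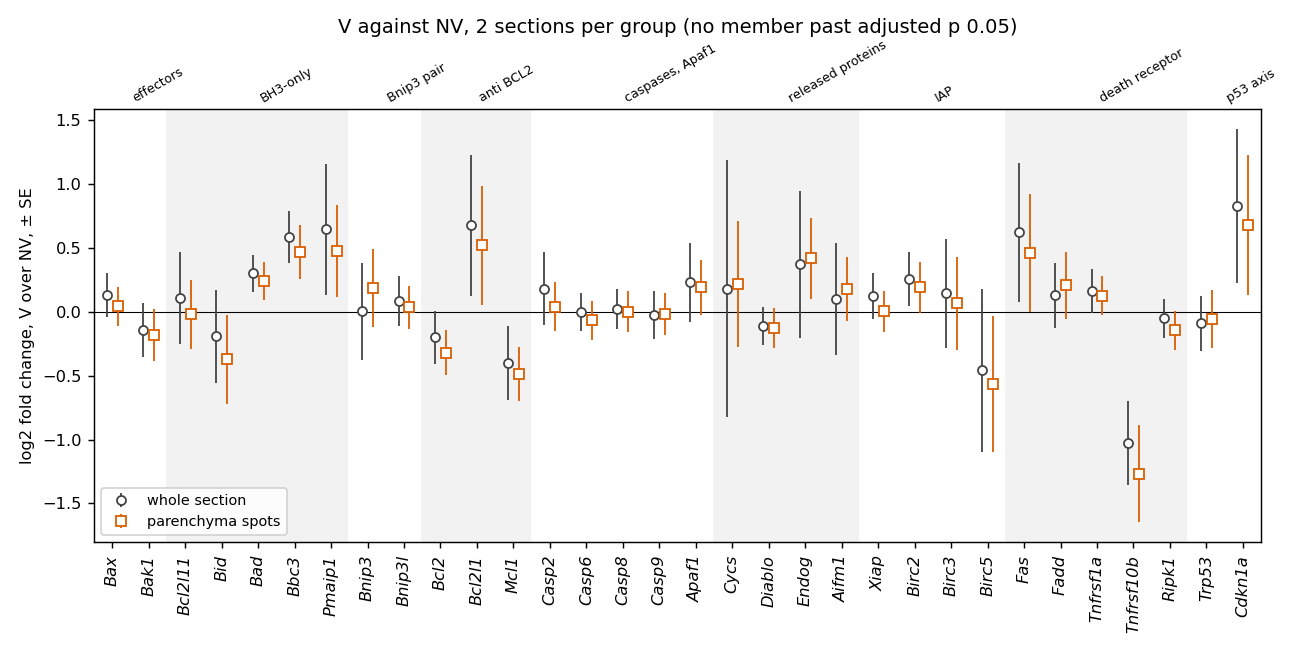
Log2 fold change of each member in V over NV, with bars of ± SE, from 2 sections a group. Circles are whole sections and squares parenchyma spots. No member passes an adjusted p of 0.05, and the widest bar is that of Cycs in whole sections.

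Both V mice lay above both NV mice for 2 of 32 members in whole sections (6.25%, against 12.6% of all genes) and below them for 1 (3.12%, against 14.4%). In parenchyma the counts were 3 above (9.38%, against 14.4%) and 4 below (12.5%, against 17.1%). In both sets of spots the same 2 were above (Bad and Bbc3; against 8.57% of genes) and the same 1 below (Tnfrsf10b; against 10.1%). Each of these shares was under that of all genes. With TMM-scaled levels in place of CPM, 3 members were above (9.38%, against 14.6%) and 3 below (9.38%, against 15.5%) in whole sections. In parenchyma 3 were then above (9.38%, against 15.5%) and 6 below (18.8%, against 16.3%), the last being the one share over that of all genes.

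Bbc3 (Puma), a BH3-only gene that p53 can induce, was at 13.1 (NV male), 11.5 (NV female), 18.4 (V male) and 19.0 (V female) CPM in whole sections. In parenchyma it was at 15.8, 13.3, 18.4 and 21.7 CPM, from 50 to 405 UMIs. The groups did not overlap in either set, and the means in whole sections were 18.7 ± 0.40 and 12.3 ± 1.14 CPM (SD, n = 2). The fitted difference was 0.59 on the log2 scale in whole sections (SE 0.21, edgeR adjusted p = 0.9997) and 0.47 in parenchyma (SE 0.21). In Cldn5/Cdh5-rich spots it was 0.32, with 0.11 without the V female and 0.50 without the V male.

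Bad, a BH3-only protein that survival kinases keep inactive, was at 39.4, 41.0, 53.7 and 47.3 CPM in whole sections and at 45.3, 43.8, 53.7 and 51.0 CPM in parenchyma. The V levels were above the NV levels by a small margin, and the fitted differences were 0.30 (SE 0.14) and 0.24 (SE 0.15). Bad overlaps Gpr137 on the other strand, and whether the counting used strand is not given in the sources used here.

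Tnfrsf10b, the mouse receptor for the death ligand TRAIL (Tnfsf10), was at 6.82, 9.49, 4.12 and 3.96 CPM in whole sections and at 7.35, 13.3, 4.12 and 4.23 CPM in parenchyma. Both V values were below both NV values, and the counts behind them were 49 to 136 UMIs in whole sections. The fitted difference was −1.03 on the log2 scale in whole sections (SE 0.33, edgeR adjusted p = 0.9997). In parenchyma it was −1.27 (SE 0.38) and in Cldn5/Cdh5-rich spots −1.25, with edgeR adjusted p = 0.9992 in both. Over the alternatives tried without leaving out a section, the parenchyma value ran from −1.60 to −1.18 and was not called in any of them. Without the V female it was called (−1.28, edgeR adjusted p = 0.0325), and without the NV female, the section with the highest level, it was −0.83 and not called. In Cldn5/Cdh5-rich spots it was −0.79 without the NV female.

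Mcl1 was at 437 (NV male), 473 (NV female), 375 (V male) and 271 (V female) CPM in parenchyma, lower in both V mice. The fitted difference was −0.49 (SE 0.21, edgeR adjusted p = 0.9992) and −0.28 without the V female. Over the fits that left out 1 section, it ran from −0.71 to −0.28. In whole sections the V male (375 CPM) lay between the NV values of 383 and 368 CPM. In parenchyma Bcl2 was at 27.3, 23.4, 20.1 and 20.4 CPM and Ripk1 at 38.1, 37.9, 35.0 and 33.3 CPM, also below NV in both V mice. Tnfrsf1a was at 145, 144, 160 and 154 CPM, above NV in both.

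For most members the male and the female pair went opposite ways. In whole sections 6 members were higher in V in both sexes, 3 were lower in both and 23 differed in sign (71.9%, against 50.5% of all genes). In parenchyma the counts were 7, 5 and 20 (62.5%, against 50.7%). The V male had the highest level of 19 members in whole sections (59.4%, against 47.2% of all genes) and of 15 in parenchyma (46.9%, against 32.8%). With 1 mouse for each sex and exposure, sex, mouse and section cannot be told apart.

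Cdkn1a, the p53-induced cell cycle inhibitor p21, was at 24 (NV male), 33.2 (NV female), 69.4 (V male) and 21.8 (V female) CPM in parenchyma. Fas was at 59.3, 84.4, 143 and 54.5 CPM and Bcl2l1 at 66.7, 111, 180 and 72.7 CPM. In each of these 3 genes the V male was the highest and the V female below the NV female. Pmaip1 was at 8.73, 11.4, 18.2 and 9.64 CPM. Cycs ran the other way, at 142, 148, 87.2 and 244 CPM, lowest in the V male and highest in the V female. The 6 brown fat markers had the same order in parenchyma, at 226, 418, 30.8 and 1057 CPM, with 2 of the 6 at 0 in the V male and 1 in the NV male. The part of brown fat in the Cycs levels was not tested.

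Leaving out 1 V mouse therefore turned the direction. The V over NV difference of Cdkn1a in parenchyma was 0.68 with all mice, −0.34 without the V male and 1.30 without the V female. For Cycs it was 0.22 with all mice, 0.79 without the V male and −0.74 without the V female. Without the V female, 3 members were called higher in whole sections (Bcl2l1, Fas and Cdkn1a; 9.38%, against 0.897% of all genes) and 1 lower (Cycs; 3.12%, against 4.57%). In parenchyma 4 were then higher (Pmaip1, Bcl2l1, Fas and Cdkn1a; 12.5%, against 3.09%) and 2 lower (Cycs and Tnfrsf10b; 6.25%, against 7.38%). Without the V male, 0 members were called in whole sections, where 21 genes were, and 2 were called higher in parenchyma (Cycs and Endog; 6.25%, against 1.43%). In parenchyma the 4 neutrophil markers summed to 184 (NV male), 258 (NV female), 580 (V male) and 108 (V female) CPM, highest in the V male and lowest in the V female as were Cdkn1a and Fas, and all 4 markers were detected in every section. The part of neutrophils in these levels was not tested.

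Whether exposure altered the endothelial contrast itself was tested as an interaction. Of 32 members, 0 were called (0% of 14027 genes), 269 genes including 0 members had an unadjusted edgeR p under 0.05, and DESeq2 called 0 genes. The members' values ran from −0.67 for Pmaip1 to 0.61 for Cycs (SE 0.43). Without the V female, 242 genes including Cycs were called.

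The balance between killers and brakes was read as the summed CPM of the 21 pro-apoptotic members over that of the 7 anti-apoptotic members, with no test. In whole sections it was 1.60 (NV male), 1.96 (NV female), 1.37 (V male) and 3.26 (V female). The V female was the highest and the V male the lowest, so the groups overlapped. The sums are led by single genes, since Cycs made up 26.5%, 31.6% and 44.7% of the pro-apoptotic sum in the sections other than the V male, and Mcl1 48.2% to 62.4% of the anti-apoptotic sum.

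In parenchyma the ratio was 1.32, 1.29, 1.37 and 1.98, and in Cldn5/Cdh5-rich spots 1.25, 1.24, 1.34 and 1.94. Here both V values were above both NV values, with the V male close to NV. With equal weight for each gene on the log2 scale, the pro- minus anti-apoptotic level overlapped between groups in both sets. It was −0.61 (NV male), −0.53 (NV female), −0.65 (V male) and −0.26 (V female) in parenchyma. In Cldn5/Cdh5-rich spots it was −0.65, −0.51, −0.63 and −0.21. The V female, highest in the ratio, was also highest in the brown fat markers given above for parenchyma. The part of brown fat in the ratio was not tested. In hilar spots the ratio was 3.64 (NV male), 3.56 (NV female) and 6.05 (V female), above every parenchyma value. The mean log2 ratio of V over NV was 0.26 in whole sections, with a spread of 0.91, and 0.34 in parenchyma, with a spread of 0.37. Spread here is the square root of the summed variances of the V and the NV values. The whole-section value was −0.37 without the V female and 0.88 without the V male, and the parenchyma value was 0.08 and 0.60.

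Narrower ratios lowered the weight of mitochondrial genes, but the BCL2 family ratio raised that of Mcl1. Mcl1 made up 82.4% (NV male), 78.6% (NV female), 65.2% (V male) and 74.4% (V female) of its anti-apoptotic sum in whole sections. The 7 pro-apoptotic over the 3 anti-apoptotic BCL2 family members gave 0.376, 0.356, 0.397 and 0.588 in whole sections and 0.380, 0.335, 0.397 and 0.553 in parenchyma, with both V mice above both NV mice. Without Cycs, Endog, Aifm1, Bnip3 and Bnip3l the ratio in whole sections was 0.687, 0.674, 0.760 and 0.910, with the same order. With equal weight for each gene on the log2 scale, V minus NV over all members was 0.04, with a spread, taken the same way, of 0.46. On that scale, the pro- minus anti-apoptotic level overlapped between groups in whole sections for both narrower sets. It was −1.95 (NV male), −2.13 (NV female), −2.04 (V male) and −1.63 (V female) for the BCL2 family. In parenchyma the BCL2 family level was −1.92, −2.21, −2.04 and −1.66, also with overlap. Without the mitochondrial genes named above the level in whole sections was −0.92, −0.83, −0.95 and −0.68. In that set Fas made up 24.1% of the pro-apoptotic sum in the V male, against 12.2% (NV male) and 15.2% (NV female). In the V female the anti-apoptotic sum was 416 CPM against 609 to 778 CPM in the other sections, and Mcl1 was 215 CPM against 368 to 383 CPM.

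**Figure D5:**
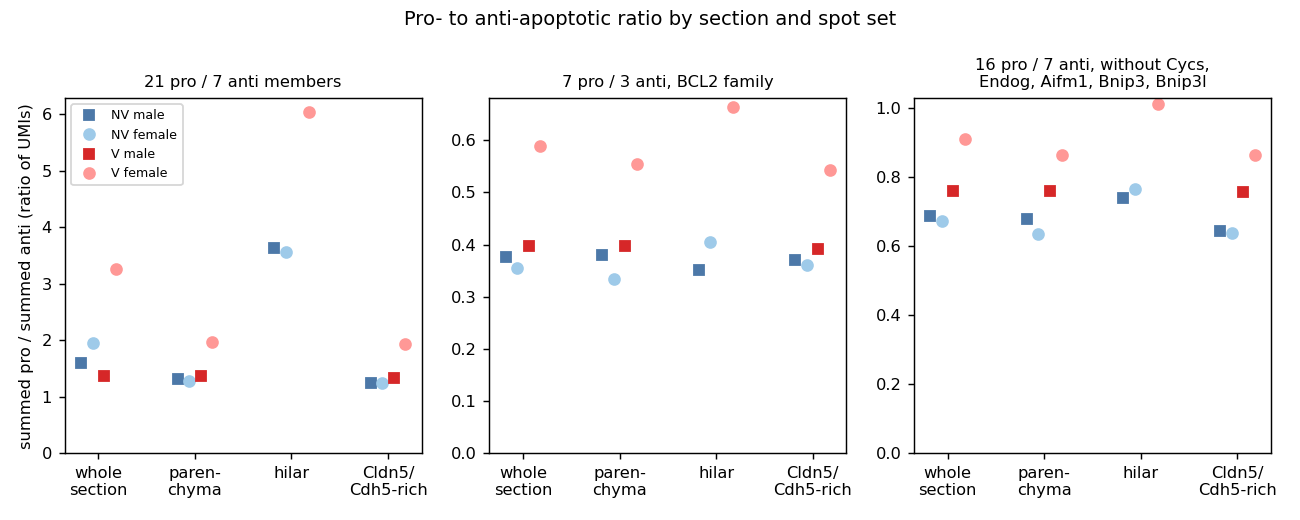
Ratio of summed pro- to summed anti-apoptotic UMIs in each section for 4 sets of spots, with all members, the BCL2 family alone and without 5 mitochondrial genes in the panels from left to right. The V female is highest in every set, at 1.98 in parenchyma for all members, and the V male has no hilar point because 1 of its spots was hilar.

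Genes of the same pathways outside the 32 were called between spot sets and not between V and NV. Of 30 further apoptosis genes (among them the executioner caspases, the other BCL2 relatives, death ligands and necroptosis kinases), 0 of the 28 tested were called between V and NV in whole sections and in parenchyma and 0 of 26 in Cldn5/Cdh5-rich spots. In hilar against parenchyma spots 16 of 27 were called (59.3%, against 41.5% of all genes), 7 higher and 9 lower. The BCL2 relatives Bcl2a1a (−1.94) and Bcl2a1b (−1.23), which have close copies that share sequence, and the TRAIL gene Tnfsf10 (−1.36) were lower on the log2 scale. Bok (1.09), a BAX-like effector, the chaperone partner Bag3 (0.77) and Bcl2l13 (0.76), a mitochondrial BCL2 relative, were higher. In Cldn5/Cdh5-rich spots 2 of 27 were called (7.41%, against 2.31% of all genes called higher and 8.39% called lower). Tnfsf10 was higher by 0.49 (edgeR adjusted p = 0.0277) and Bok lower by −0.72 (edgeR adjusted p = 0.0285). Within parenchyma 0 of 27 were called, against 1.26% of all genes called higher and 1.16% called lower.

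Of 16 targets of p53, 0 were called between V and NV in whole sections (16 tested), parenchyma (16) or Cldn5/Cdh5-rich spots (14). In hilar spots 8 of 15 tested were called (53.3%, against 41.5% of all genes), 5 higher and 3 lower. Ccng1 (1.43), Perp (1.36), Phlda3 (1.17) and Tigar (0.85) were higher on the log2 scale, and Plk2 (−0.90) and Trp53inp1 (−0.64) lower. In Cldn5/Cdh5-rich spots 3 of 14 were called (21.4%, against 8.39% of all genes called lower), all lower (Perp −0.83, Ccng1 −0.54 and Phlda3 −0.54). Within parenchyma 0 of 14 were called, against 1.26% of all genes called higher and 1.16% called lower. Trp53 itself was at 24.9, 31, 25.7 and 27.5 CPM in whole sections, with overlapping groups.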

How the data were processed

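Visium 3′ libraries of 4 mouse lung sections (2 V, 2 NV) were aligned by the authors to mm10 with Space Ranger and analysed by them in Seurat 4.0.3. The deposited files hold raw UMI counts per gene and spot, and these counts were used without the authors' normalization. Whether the counting used strand was not given in the sources used here.

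UMIs were summed per mouse and spot set, since spots of 1 section are not replicates. A level is CPM, UMIs scaled to a total of 1000000 for the set. Parenchyma spots had a summed share of the 6 lung genes of at least 50% of that over all spots. Cldn5/Cdh5-rich spots were the top 25% of a section among spots of 1000 UMIs or more. Doublet calling does not apply to spots. Sections shared 277 to 1167 barcodes, which come from the fixed barcode set of the slide. The sums were tested with edgeR 4.0.16 in R 4.3.3 (quasi-likelihood, TMM, filterByExpr), Benjamini-Hochberg adjusted over all genes tested and called at an adjusted p under 0.05. Contrasts of spot sets within sections, given at least 50 spots on each side, had the section as a block. DESeq2 1.42.0, no filter on low counts, other scalings, thinning, other thresholds, a replicate block and leaving out each section were alternatives.

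The study's test over spots was replaced by sums per mouse. Tests were given for members called in a contrast, for members with both V mice beyond both NV mice in whole sections and parenchyma, and, of the 2 further gene lists, for up to 6 called genes a contrast. Values of Mcl1, Cycs, Bcl2l1, Fas, Cdkn1a, Xiap and the other members were chosen after their values were seen. The members and lists were chosen with earlier results of these data known. The scripts were tested on simulated data. In the annotation (GENCODE vM21), 2 of the 31 members looked up overlap a protein-coding gene on the same strand and 7 one on the other strand. Replicate numbers pair sections only by sex.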

Additional observations from a re-analysis of the deposited data

Results flagged for a closer look

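The log2 level of Bcl2, the founding anti-apoptotic gene, in Cldn5/Cdh5-rich over other spots was above 0 in both NV sections (0.10 in the male and 0.04 in the female) and below 0 in both V sections (-0.01 and -0.11), a difference of -0.1272. The edgeR interaction for Bcl2 was -0.09 on the log2 scale (SE 0.25, adjusted p = 1).

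Dixon's rule on groups of 4, which chance alone meets in about 1 of 20 groups, picked out 2 other members in the same contrast. For Apaf1, the apoptosome scaffold, the V female stood at 0.5758 against -0.01 (NV male), -0.06 (NV female) and -0.08 (V male). For Tnfrsf1a the V male stood at -0.09122 against 0.42 (NV male), 0.44 (NV female) and 0.41 (V female).

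In parenchyma the V over NV difference had opposite signs in males and females for 4 members described above. The male minus female difference on the log2 scale was 2.038 for Bcl2l1, 1.894 for Fas, 2.139 for Cdkn1a and -1.421 for Cycs. With 1 mouse for each sex and exposure these differences were not tested.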

How the results depend on the processing

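The count of members called between V and NV was 0 under every alternative that kept all 4 sections, the replicate block included. Leaving out 1 section gave 0 to 4 in whole sections, 0 to 6 in parenchyma, 0 to 4 in Cldn5/Cdh5-rich spots and 0 to 1 for the interaction. For Cldn5/Cdh5-rich against other spots the count was 4 (1420 of 13273 genes called). It became 2 with the top 50% of spots (1525 of 13309) and 2 with spots thinned to 3000 UMIs (458 of 10746). In parenchyma spots only it was 0 (304 of 12535), and with no replicate block it was 0, as for all genes (0 of 13273). With total UMIs it was 7 (2066 of 13273), and without 1 section 0 to 12. Hilar against parenchyma went from 16 to 28 with total UMIs. Members were 4 higher and 8 lower with the DESeq2 test (4177 of 13526 genes called). At a parenchyma threshold of 25% the NV male had 35 hilar spots, under the minimum of 50. That fit used the NV female and V female only, and members were 5 higher and 8 lower (4255 of 13977), without Bax, Fas and Tnfrsf1a. With no replicate block they were 4 and 7 (3921 of 13526), without Bax, Mcl1, Diablo, Birc3 and Tnfrsf1a. With no filter on low counts they were 4 and 14 (6769 of 21102).

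Values that turned direction were Aifm1 in Cldn5/Cdh5-rich spots (0.0241 in parenchyma only), Diablo in hilar spots (-0.0733 with total UMIs) and Cycs between V and NV in whole sections (0.18, and -0.47 with the replicate block). Without 1 section, whole-section V over NV values ran from -0.24 to 1.23 for Bcl2l1, -0.33 to 1.19 for Fas, -0.27 to 1.45 for Cdkn1a and -2.01 to 1.001 for Cycs. In parenchyma they ran from -0.23 to 1.03, -0.35 to 0.99, -0.34 to 1.30 and -0.74 to 0.79. With 1 section left in a group, that section is assumed to vary like the others. The cause of these changes was not tested.

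Same-numbered sections share only a number and a sex. The correlation across genes of their deviations from the group means was 0.376 in whole sections (14570 genes) and 0.0768 in parenchyma (14348 genes). There were 2 pairs of sections, and the replicate block called 0 genes in both sets. Total UMI scaling, the ratio in Cldn5/Cdh5-rich spots, the BCL2 family ratio in parenchyma, the parenchyma ratio without 1 section and leaving out sections from the interaction were chosen after seeing the data. Hilar spots low in heart and brown fat markers could not be fitted, since 1 section had 50 or more of them. Depth limits Tnfrsf10b, Birc5 and Pmaip1, which rest on few UMIs.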
